A study of Mus musculus with 12 samples.

Results

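Among 12 mouse liver libraries, 3 had an Igfbp1 value below 50 RPKM (reads per kilobase, scaled to sequencing depth), and these are described here as the low-Igfbp1 libraries. They were WT 6, Gcg KO 10 and Gcg KO 12, and wherever 3 values are given for them they follow in this order. The choice rested on the measured value of 1 gene and on no label, so every difference between these 3 libraries and the other 9 is given below as a description, without a test. Igfbp1 itself was left out of every count.

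The series compared the livers of wild-type mice (WT, 6 libraries) with those of mice lacking Gcg, the gene for preproglucagon (Gcg KO, 6 libraries), and asked how glucagon bears on gene expression across the liver. All 12 libraries are labelled as liver and as taken in the fed state. The Gcg KO genotype is given as Gcg-/-, with no promoter or cell type limiting the loss, and no library carries another allele or agent. Of the low-Igfbp1 libraries, 1 was among the 6 WT libraries and 2 were among the 6 Gcg KO libraries, so neither genotype held all of them. Sex, age, collection time, batch and whether each library came from a separate animal are not in the labels used here, and p-values below therefore measure only the spread between these libraries, which may be technical.

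Igfbp1 encodes insulin-like growth factor binding protein 1, a secreted hepatocyte protein whose transcription is repressed by insulin through FOXO1 and raised by glucocorticoids, by cAMP and by cellular stress. Pck1 and G6pc, which encode 2 enzymes of hepatic glucose production, are regulated by many of the same signals. Immediate early genes such as Egr1 and Fos are transcribed within minutes of a stimulus and their transcripts are short-lived, and the metallothionein genes Mt1 and Mt2 respond to zinc and to glucocorticoids.

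Expression was measured from poly(A) RNA, and the deposited table held RPKM values of 24475 genes. An estimated 10200000 to 15000000 reads underlay each library, with 10200000 to 13600000 in the low-Igfbp1 libraries and 11000000 to 15000000 in the others. Between 15191 and 15564 genes had a value above 0 in a library. Gcg was listed at 0 in all 12 libraries, so the targeted gene could not check the genotype labels in this tissue. The liver label was checked against hepatocyte markers, of which albumin (Alb) lay between 22432 and 31956 RPKM. The correlation of log2 values over genes was 0.983 to 0.989 within the 3 pairs of low-Igfbp1 libraries, 0.967 to 0.983 between a low-Igfbp1 library and another, and 0.973 to 0.989 among the other 9, and no 2 libraries held the same values.

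Igfbp1 (chr11:7197787-7202546, GRCm38) stood at 6.22 RPKM in WT 6, 14.2 in Gcg KO 10 and 9.35 in Gcg KO 12. In the other WT libraries it stood at 289, 159, 203, 675 and 417 RPKM (WT 1 to WT 5), and in the other Gcg KO libraries at 464, 349, 319 and 738 (Gcg KO 7, 8, 9 and 11). The member nearest the threshold was thus Gcg KO 10 at 14.2, and the library nearest to it on the other side was WT 2 at 159. No library lay between these values.

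The sequences just before annotated starts of Igfbp1, Pck1 and Nr4a1 are shown because they hold short motifs of the signals named above. Each is the 250 bases before an annotated start, from RefSeq (GRCm38.p6), written 5′ to 3′ on the plus strand, which is the strand of all 3 genes. Capitals mark the insulin response sequence CAAAACA in Igfbp1 and, in Pck1 and Nr4a1, the CRE core TGACG, part of the element bound by the cAMP-responsive factor CREB. In these windows the core lies on the minus strand and is read as CGTCA.
Igfbp1, chr11:7197537-7197786: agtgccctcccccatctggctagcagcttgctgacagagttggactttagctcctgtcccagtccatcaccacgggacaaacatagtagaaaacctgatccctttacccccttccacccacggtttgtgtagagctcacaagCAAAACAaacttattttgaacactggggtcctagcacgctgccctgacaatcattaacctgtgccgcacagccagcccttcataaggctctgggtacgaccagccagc
Pck1, chr2:173152823-173153072: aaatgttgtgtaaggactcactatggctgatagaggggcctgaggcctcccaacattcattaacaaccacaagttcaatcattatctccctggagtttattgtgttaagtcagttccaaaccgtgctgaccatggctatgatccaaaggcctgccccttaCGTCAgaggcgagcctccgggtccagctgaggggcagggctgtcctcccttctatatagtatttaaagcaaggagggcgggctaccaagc
Nr4a1, chr15:101266596-101266845: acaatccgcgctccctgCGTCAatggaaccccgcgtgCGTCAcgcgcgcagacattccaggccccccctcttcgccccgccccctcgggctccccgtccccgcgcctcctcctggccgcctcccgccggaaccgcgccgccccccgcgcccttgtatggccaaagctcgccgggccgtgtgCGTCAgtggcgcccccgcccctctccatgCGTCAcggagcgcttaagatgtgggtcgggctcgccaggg
The Igfbp1 match lay 108 to 102 bases before the start. The Pck1 core lay 90 to 86 bases before the start, and Nr4a1 held 4 cores, the outermost 233 and the innermost 40 bases before it. The Nr4a1 start used here lies inside the coordinates given for that gene below, so its window is within the gene. TGACG, searched on both strands, was present in 17.8% of all 32851 RefSeq windows of this length and in 26.6% of the windows of the genes described here. In 88 genes the 3 low-Igfbp1 libraries all lay below every other library, with a genotype-adjusted mean difference of at least 2-fold. Of these 88 genes, 69 had a RefSeq window, with 93 windows in all because some genes have several starts. TGACG was present in 40.9% of these windows. The 16 genes higher by the same rule had 15 windows from 13 genes, and 26.7% of these held it. The full CRE TGACGTCA, which contains that core, was present in 1.55%, 2.54% and 6.45% of the windows of all, described and lower genes and in 0 of the 15 windows of higher genes. For CAAAACA the shares were 5.56%, 3.98% and 6.45%, and 13.3% for the higher genes (2 of 15 windows). The metal response element core TGCNCNC was present in 44.4%, 52.1% and 50.5%, and in 26.7% for the higher genes. The FOXO motif GTAAACA was present in 3.17%, 2.29%, 3.23% and 6.67%, and the glucocorticoid receptor motif AGAACA in 16.1%, 11.1%, 15.1% and 0%. The CArG box of serum response factor was present in 1.47%, 1.06%, 2.15% and 0%. A match is a description of the letters and no evidence of binding.

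The genes compared were the 11346 with a mean of at least 0.5 RPKM, and differences between the 3 libraries and the other 9 are on the log2(RPKM + 0.5) scale with genotype held constant. A gene was counted as lower or higher when the 3 libraries all lay below or all lay above the other 9. There were 192 lower genes (1.69%) and 647 higher genes (5.7%), but the sizes were unlike: the median difference was -0.91 for the lower genes and 0.36 for the higher genes, and 491 of the 647 higher genes differed by under 0.5. Higher genes made up 77.1% of both together. This split depended on scaling, because the 3 libraries had median log2 values of 2.66 to 2.75 against 2.56 to 2.67 in the others and the median difference over all genes was 0.10. With each library centred on its median there were 309 lower and 269 higher genes (46.5% higher), and after quantile normalization 304 and 261 (46.2% higher). With a difference of at least 2-fold as well, 88 genes were lower (0.776%) and 16 were higher (0.141%). Most genes thus overlapped, and the counts of list members below are to be read beside the shares of 1.69% lower and 5.7% higher.

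**Figure D1:**
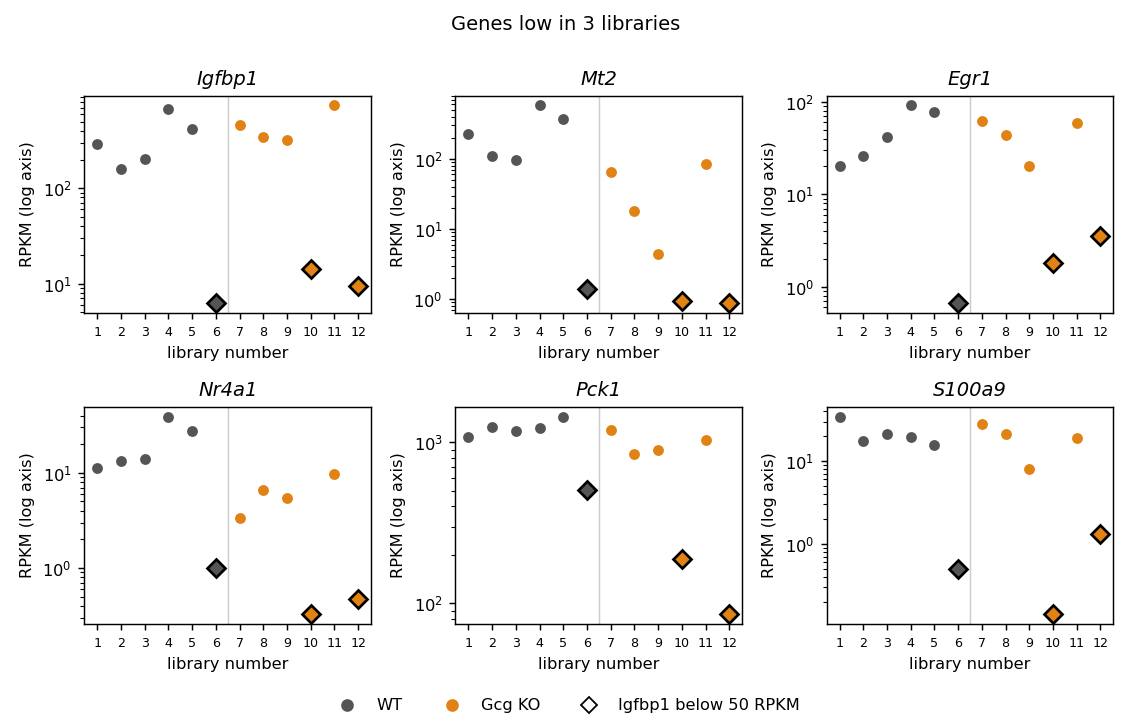
RPKM on a log10 axis of genes that were low in the 3 low-Igfbp1 libraries, 1 point per library, in grey for WT and orange for Gcg KO, with outlined diamonds for the 3 low-Igfbp1 libraries and circles for the other 9. The diamonds lie below every circle in all 6 panels, which in the Igfbp1 panel follows from the choice of the libraries. For Mt2 they lie at 0.875 to 1.38 RPKM against 4.37 to 579.

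Of the genes of hepatic glucose production, Pck1 and G6pc were low in the 3 libraries. Pck1 (chr2:173153073-173159274), which encodes cytosolic phosphoenolpyruvate carboxykinase, stood at 504, 189 and 85.3 RPKM in the 3 libraries. In the other libraries it ranged from 845 to 1444 with a median of 1172, and the difference was -2.31. WT 6 was the least low of the 3, and without it the difference was -2.95. G6pc (chr11:101367716-101377903), the catalytic subunit of glucose-6-phosphatase, stood at 132, 143 and 134 RPKM against 336 to 681 (median 415), a difference of -1.79. Of 14 gluconeogenesis genes these 2 were lower and 1 was higher, namely Got2, the mitochondrial aspartate aminotransferase, at 226, 216 and 221 RPKM against 191 to 204 (difference 0.14). The remaining 11 overlapped, and the median of the list was -0.04. Among these, Fbp1 and Pcx differed by 0.09 and 0.12, Slc37a4, the glucose-6-phosphate transporter, by -0.45, and Got1, the cytosolic aspartate aminotransferase, by -0.71 (-1.39 within WT and -0.29 within Gcg KO).

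Of 19 genes that FOXO1 raises and insulin represses, 4 were lower, 0 were higher and 15 overlapped, with a median of -0.63. Beside Pck1 and G6pc the lower members were Irs2, an adaptor of the insulin receptor, and Klf15, a transcription factor of amino acid breakdown. Irs2 stood at 2.55, 2.35 and 2.43 RPKM in the 3 libraries against 3.30 to 12.9 (median 6.16), and Klf15 at 48.9, 43.5 and 35.7 against 54.3 to 86.8 (median 76.5). Ppargc1a, the coactivator of gluconeogenic transcription, overlapped at 1.25, 1.13 and 0.741 against 0.664 to 5.09 RPKM. Pdk4, which restrains pyruvate oxidation, and the insulin receptor gene Insr also overlapped.

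Genes that insulin and feeding induce for fatty acid synthesis did not separate the libraries: all 18 described members overlapped and their median was 0.11. Most described genes overlapped too, 1.69% of them being lower and 5.7% higher. Srebf1, the master regulator of this program, stood at 44.0, 37.1 and 39.4 RPKM against 28.9 to 74.8 (median 43.0). Fasn, fatty acid synthase, stood at 59.7, 62.6 and 53.6 against 42.5 to 139 (median 52.7). Scd1, stearoyl-CoA desaturase, stood at 1159, 2273 and 1290 against 472 to 1449 (median 837), so Gcg KO 10 lay above the range of the others and the remaining pair within it. Of 14 glycogen genes 1 was lower, Ppp1r3g, which targets protein phosphatase to glycogen. It stood at 0.0369, 0.253 and 0.0422 RPKM against 2.18 to 13.0 (median 4.94), a difference of -3.23.

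Immediate early genes were low together. Of 29 described members 21 were lower, 0 were higher and 8 overlapped, with a median difference of -1.48. Egr1 (chr18:34861207-34864956), a zinc finger transcription factor, stood at 0.665, 1.81 and 3.52 RPKM in the 3 libraries against 20.0 to 91.3 (median 44.2), a difference of -4.37. Atf3, a stress-induced transcription factor, stood at 0.345, 0.444 and 0.394 against 3.31 to 31.1 (median 6.70). For both genes the highest of the 3 libraries was more than 5-fold below the lowest of the others. Btg2, an antiproliferative gene, stood at 1.21, 1.4 and 1.96 against 7.80 to 64.9 (median 14.1). The AP-1 subunit Fos stood at 0.325, 0.454 and 0.279 against 1.81 to 14.7 (median 4.38), and its partner Junb at 5.55, 4.77 and 6.66 against 8.17 to 35.1 (median 19.1). Among the members that overlapped were Myc, Ier3 and Klf10, with differences of -0.23, -0.19 and 0.00.

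Of 22 genes responsive to cAMP and CREB, 13 were lower, 0 were higher and 9 overlapped, with a median of -1.64. Nr4a1 (chr15:101253902-101274795), an orphan nuclear receptor with the sequence before an internal start printed above, stood at 0.997, 0.325 and 0.471 RPKM against 3.39 to 38.9 (median 11.2), a difference of -3.16. Fosb stood at 0.0225, 0.0194 and 0.0515 against 0.465 to 12.6 (median 2.99). Sik1, a kinase that restrains CREB coactivators and was named after its values were seen, stood at 1.76, 1.26 and 1.43 against 4.17 to 32.3 (median 7.33). The list shares Egr1, Nr4a1, Fos, Junb and others with the immediate early list, so the counts of the lists are not independent of each other. Ppargc1a, Crem and Fgf21 of this list overlapped.

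The list of glucocorticoid-responsive genes held Mt2 and Mt1, which had the largest negative differences of the named genes. Of 22 described members 14 were lower, 0 were higher and 8 overlapped, with a median of -1.41. Mt2 (chr8:94172618-94173567) stood at 1.38, 0.940 and 0.875 RPKM in the 3 libraries against 4.37 to 579 (median 98.1), a difference of -5.26. Its neighbour Mt1 (chr8:94178883-94180327) stood at 5.34, 5.51 and 3.95 against 9.92 to 748 (median 234), a difference of -4.37. The lowest of the other 9 in both genes was a Gcg KO library, so the 3 libraries lay near the low end of the Gcg KO libraries and far from the other WT libraries, of which the lowest held 217 RPKM of Mt1 and 98.1 of Mt2. Mt1 and Mt2 are similar in sequence, and the sources used here do not say how reads shared by them were assigned. Of the 12 described metallothionein and zinc genes 3 were lower, namely Mt1, Mt2 and the zinc importer gene Slc39a14, and the list's median was -0.02.

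Beside the metallothioneins, Ddit4, an inhibitor of mTORC1, stood at 1.72, 2.82 and 2.66 RPKM against 11.7 to 42.7 (median 28.0), a difference of -3.15. Per1, a clock gene that glucocorticoids and cAMP induce directly, stood at 0.586, 1.79 and 0.837 against 3.83 to 17.7 (median 7.73). Tsc22d3, which encodes the glucocorticoid-induced leucine zipper, stood at 28.7, 57.5 and 25.4 against 60.8 to 101 (median 88.5), and there Gcg KO 10 came close to the range of the others. Tat, tyrosine aminotransferase, stood at 493, 226 and 153 against 642 to 1337 (median 1062). Fkbp5, a cochaperone of the glucocorticoid receptor, overlapped at 3.22, 4.95 and 6.91 against 3.72 to 11.7 RPKM. The immediate early, cAMP and glucocorticoid lists together held 61 distinct described genes, of which 36 were lower and 0 were higher. They held 32 of the 88 genes that were lower by at least 2-fold (36.4%), and 41 of the 88 were in none of the lists examined. The lists were drawn up with earlier results of these libraries known, so their counts are not independent evidence of a direction.

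**Figure D2:**
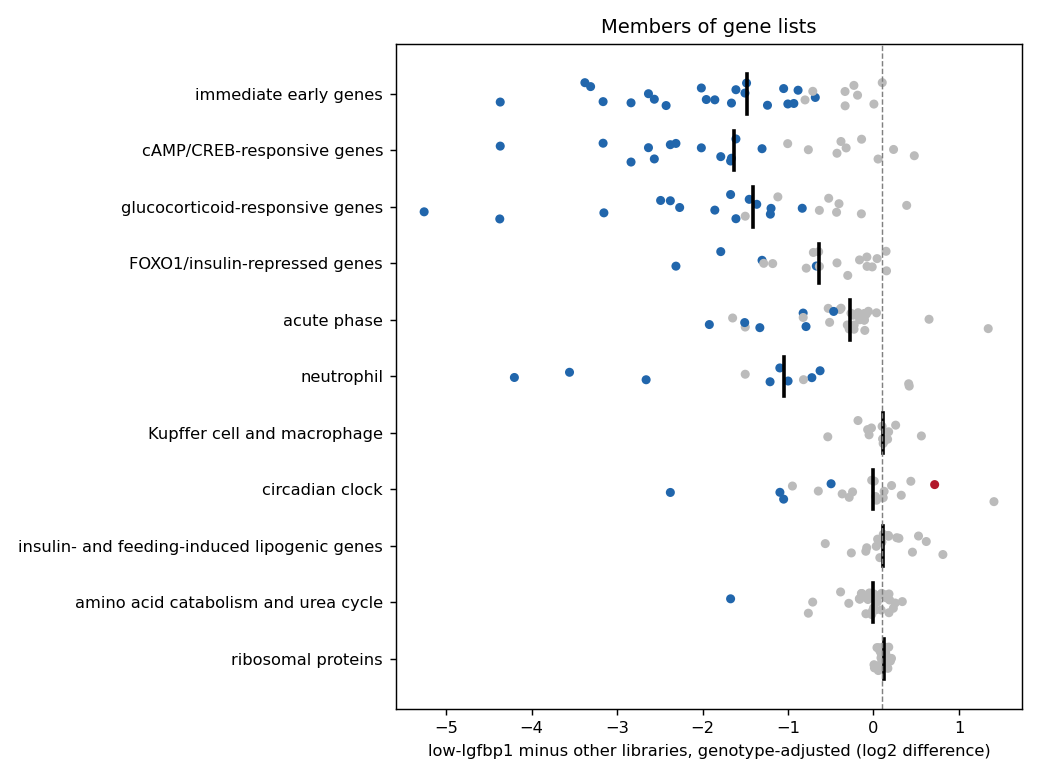
Genotype-adjusted difference on the log2(RPKM + 0.5) scale (low-Igfbp1 minus other libraries) of the described members of gene lists, 1 point per gene with the list's median as a black bar and the median of all described genes as a dashed line. Blue and red points are genes whose 3 values lie below or above all other libraries, and grey points overlap. The immediate early, cAMP and glucocorticoid lists have medians of -1.48, -1.64 and -1.41, and the neutrophil list one of -1.05, while the medians of the lipogenic, amino acid and ribosomal lists lie between 0.00 and 0.12.

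The list of p53 targets held 2 of the 10 genes with the largest negative differences, Btg2 and Trp53inp1. Of its 12 described members 4 were lower and 8 overlapped, among them Mdm2, Bax and Ccng1, and the list's median was -0.08. Trp53inp1, a proapoptotic stress protein, stood at 9.56, 19.6 and 14.0 RPKM against 79.2 to 169 (median 124), a difference of -3.20. Cdkn1a, the cyclin-dependent kinase inhibitor p21, stood at 1.96, 3.52 and 4.38 against 13.3 to 29.0 (median 17.4). Gdf15, a stress-induced hormone of the TGF-beta family, stood at 3.06, 2.36 and 2.24 against 8.77 to 71.1 (median 25.4). Btg2 was the remaining one.

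Clock genes differed in both directions: of 20 members 4 were lower, 1 was higher and 15 overlapped. Over all described genes 1.69% were lower and 5.7% higher. The list's median was -0.01, but its differences ran from -2.38 (Per1) to 1.41 (Dbp), so the median does not show that its members were unchanged. The lower members were Per1, Bhlhe40, Nfil3 and Rora. Arntl, the core activator of the clock, stood at 7.56, 8.34 and 8.25 RPKM against 5 to 10.1 (median 8.65). The repressor Nr1d1 stood at 25.9, 18.1 and 25.2 against 10.8 to 24.8, and Dbp, an output gene of the clock, at 2.59, 1.22 and 2.67 against 0.143 to 1.46. In Dbp only Gcg KO 10 lay within the range of the others. Per3 was the higher member, at 0.936, 0.707 and 1.22 against 0.195 to 0.614.

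Of 30 acute phase genes 6 were lower, 0 were higher and 24 overlapped, with a median of -0.27, where 1.69% of all described genes were lower. Saa1, serum amyloid A1, stood at 32.4, 23.3 and 22.9 RPKM against 35.2 to 518 (median 91.3), and Saa2 overlapped at 14.4, 6.23 and 7.80 against 10.7 to 259. Reads shared by these closely similar genes may have been divided between them in the authors' counting. Il1r1, the receptor of interleukin 1, stood at 4.45, 5.85 and 6.02 against 8.37 to 30.1, and Cd14, a coreceptor for endotoxin, at 0.717, 0.792 and 0.937 against 1.08 to 5.14. Lcn2, Il1b and Cxcl1 overlapped. Hamp, which encodes the iron regulator hepcidin and was named after its values were seen, stood at 829, 1980 and 2033 against 426 to 1345, so it was high in both low-Igfbp1 Gcg KO libraries and within the range of the others in WT 6. Of 16 genes of NF-kB and chemokines 2 were lower, Nfkbia and Tnfaip3, and of 20 interferon-stimulated genes 2 were higher, Irf1 and Stat2.

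Most of the described neutrophil markers were low in the same 3 libraries. Of 23 neutrophil markers 12 were expressed enough to be described, 8 of these were lower, 0 were higher and 4 overlapped, with a median of -1.05. The other 11 stayed under the expression minimum. Among these, Ltf, Camp, Mpo and Stfa2l1 were listed at 0 in all 3 low-Igfbp1 libraries, but in the other 9 they ranged only from 0 to 0.0627, 0 to 0.152, 0 to 0.0357 and 0 to 0.964 RPKM, so these values do not set the 3 apart. S100a9 and S100a8, which encode the subunits of calprotectin, a major cytosolic protein of neutrophils, led the list. S100a9 stood at 0.489, 0.140 and 1.31 RPKM in the 3 libraries against 7.91 to 34.3 (median 19.5), a difference of -4.20. S100a8 stood at 0.651, 1.12 and 0.496 against 7.14 to 24.9 (median 14.6), and Retnlg, a resistin-like protein of granulocytes, at 0.280, 0 and 0.160 against 1.57 to 5.34 (median 3.81). In these 3 genes the groups were separated by more than the range of the low-Igfbp1 libraries. The interleukin 1 decoy receptor Il1r2 stood at 0, 0.0544 and 0 against 0.0548 to 1.47. Of the 4 that overlapped, Lcn2 and Il1b differed by -1.50 and -0.82, whereas the formyl peptide receptor genes Fpr1 and Fpr2 differed by 0.42 and 0.41 and were positive within both genotypes. The summed RPKM of all the markers was 9.21 to 11.9 in the 3 libraries and 30.5 to 110.4 in the others. In these bulk samples fewer neutrophils, less RNA per neutrophil and less expression of these genes in other cells cannot be told apart. Lcn2, for example, is also on the acute phase list. The part of the neutrophil marker difference in the results for other genes was not tested.

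Markers of the other liver cell types mostly overlapped, as did most described genes, of which 1.69% were lower and 5.7% higher. All 15 Kupffer cell and macrophage markers did (median 0.11), as did all 14 endothelial (median 0.21), 15 stellate cell and fibroblast (median 0.11) and 6 erythroid markers (median -0.02). Clec4f and Vsig4, defining genes of Kupffer cells, stood at 27.0 to 33.6 and 14.5 to 16.3 RPKM in the 3 libraries against 19.7 to 45.3 and 8.37 to 15.7. The 9 hepatocyte markers all overlapped, with a summed RPKM of 49649 to 54485 against 44640 to 61606. Of 4 described cholangiocyte markers 1 was lower, Krt19, at 0.496, 0.372 and 0.425 against 0.830 to 1.43 RPKM.

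**Figure D3:**
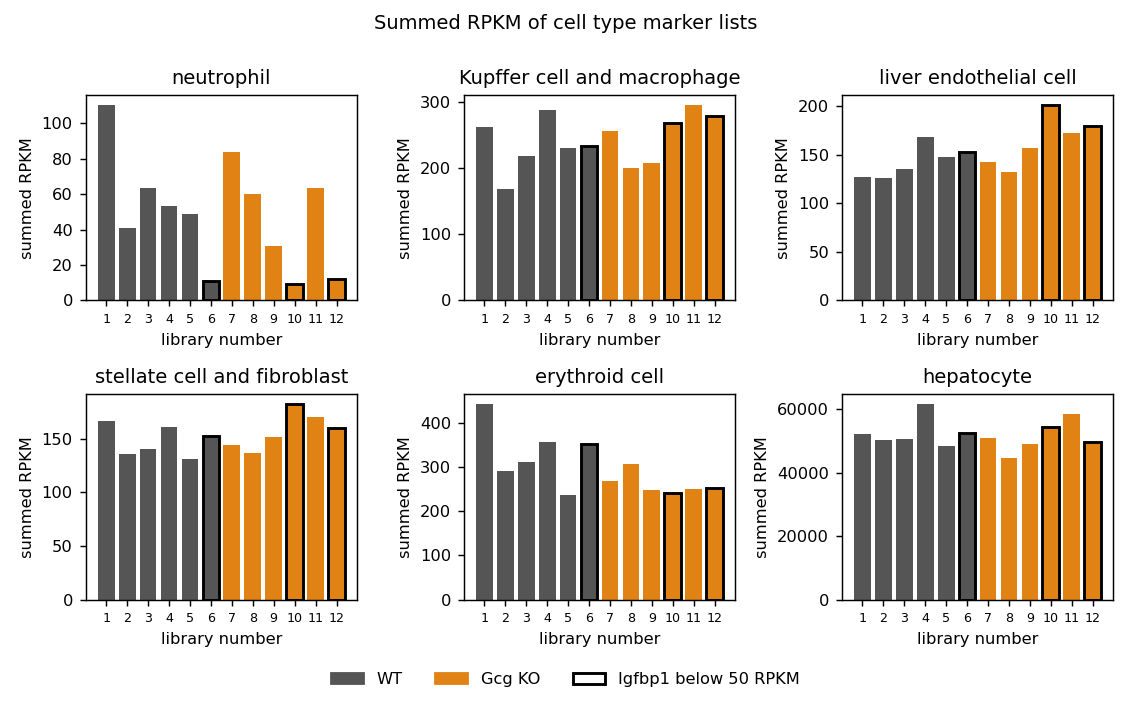
Summed RPKM of the marker genes of liver cell types as 1 bar per library on a linear axis from 0, in grey for WT and orange for Gcg KO, with outlined bars for the 3 low-Igfbp1 libraries. The neutrophil sums lie at 9.21 to 11.9 against 30.5 to 110.4, and the hepatocyte sums lie within the range of the other 9.

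The 16 genes higher by at least 2-fold without overlap included Foxa2, Foxa1, Hhex, Foxq1 and Id3. Foxa2 (chr2:148042877-148046969), a pioneer factor of the liver, stood at 17.3, 15.4 and 15.7 RPKM in the 3 libraries against 2.64 to 5.45 (median 4.04), a difference of 1.97. Foxa1 stood at 9.91, 10.5 and 14.4 against 1.97 to 4.44 (median 3.53). Hhex, a homeobox gene needed for liver development, stood at 71.8, 74.0 and 95 against 6.90 to 19.6 (median 11.1), a difference of 2.63. The forkhead gene Foxq1 stood at 9.16, 15.9 and 17.2 against 1.87 to 6.79 (median 3.85), and Id3, an inhibitor of basic helix-loop-helix factors, at 51.3, 61.6 and 60.8 against 10.1 to 22.3 (median 14.1). For Foxa2, Hhex and Id3 the lowest of the 3 libraries stood more than 2-fold above the highest of the other 9.

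The largest difference among the genes higher without overlap was in Cish (chr9:107296659-107302784), a cytokine-induced suppressor of signalling through STAT5. It stood at 13.2, 10.2 and 22.1 RPKM against 0.277 to 6.51 (median 0.772), a difference of 2.87. Socs2 and Socs3, further feedback genes of cytokine receptors, overlapped at differences of 0.01 and -0.23. Igf1, the main transcriptional output of growth hormone in the liver, also overlapped, at 118, 91.6 and 105 against 69.0 to 142. Of 15 growth hormone and IGF genes 2 were higher, Cish and the kinase gene Jak2, and 13 overlapped.

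G0s2, an inhibitor of adipose triglyceride lipase, stood at 35.3, 32.1 and 37.1 RPKM against 5.6 to 13.6 (median 9.39). Phlda1, a pleckstrin homology domain protein, stood at 64.5, 54.0 and 80.6 against 5.51 to 21.8 (median 9.40), a difference of 2.48. Inhbe, the subunit of the hepatokine activin E, stood at 18.2, 14.0 and 16.9 against 3.33 to 10.2 (median 5.51). The P450 gene Cyp2c55 stood at 13.6, 11.7 and 8.56 against 2.88 to 7.31, and it belongs to a family of close paralogs whose shared reads may have been divided. Of the 16 genes, 13 were in none of the lists examined and 3 were unnamed gene models. Fzd7, a Wnt receptor, and Sox18, an endothelial transcription factor, were named after their values were seen and stood at 4.42, 4.10 and 6.35 against 1.06 to 2.76, and at 2.52, 2.35 and 2.88 against 0.493 to 1.37.

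**Figure D4:**
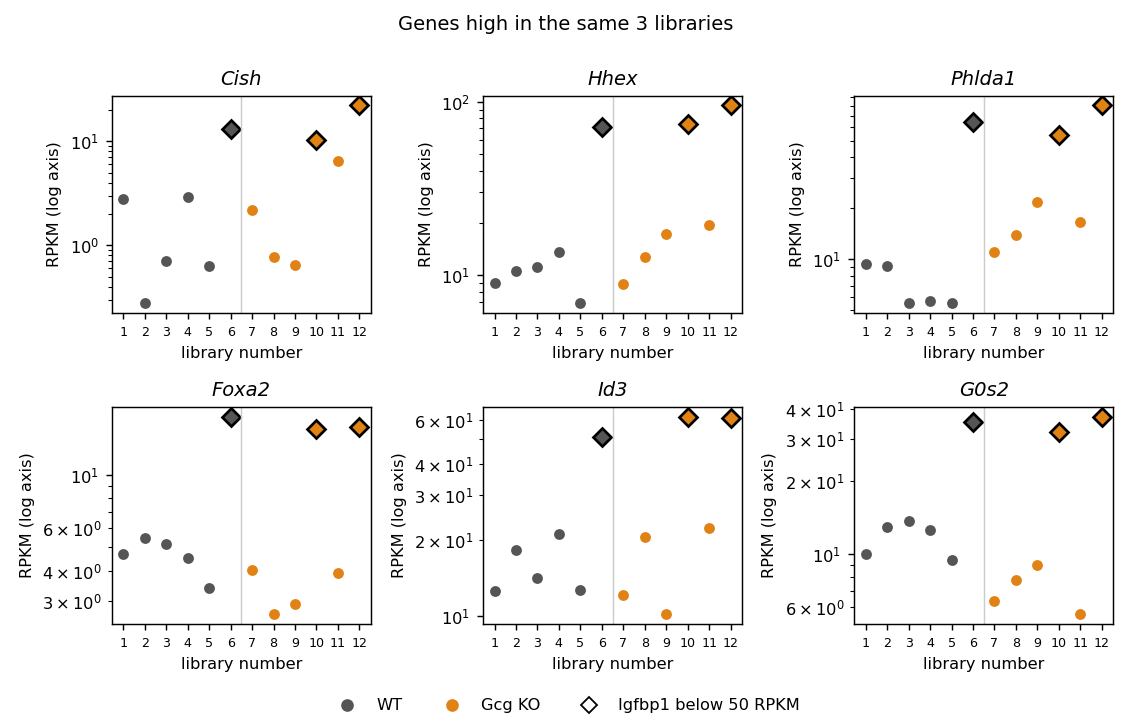
RPKM on a log10 axis of genes that were high in the 3 low-Igfbp1 libraries, drawn as in the plot of low genes. For Hhex the 3 libraries lie at 71.8 to 95 RPKM and the other 9 at 6.90 to 19.6.

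Zonated and metabolic genes mostly overlapped, which is also true of all described genes (1.69% lower and 5.7% higher). Of 16 pericentral genes 2 were higher, namely Axin2, a feedback target of Wnt signalling, at 1.86, 1.75 and 1.94 RPKM against 0.533 to 1.66, and Tbx3, at 5.81, 5.53 and 5.21 against 1.70 to 4.86. Glul and Cyp2e1, the classical pericentral markers, overlapped with differences of -0.20 and 0.11. Of 15 periportal genes only Pck1 was lower. Of 27 PPAR-alpha and fatty acid oxidation genes 4 were higher and 1 was lower (median 0.26), with Fabp1, the liver fatty acid binding protein, at 7857, 7937 and 7566 against 4450 to 6442. Cyp4a14, a target of PPAR-alpha, had the largest positive difference of all described genes (2.94) and yet overlapped, at 55.2, 100 and 50.7 RPKM against 0.552 to 68.8. Of 33 genes of amino acid breakdown and the urea cycle 1 was lower, Tat, and the median was 0.00. All 32 ribosomal protein genes (median 0.12), all 18 heat shock genes (median -0.05) and all 15 bile acid genes (median -0.06) overlapped. The heat shock median joined opposite signs, at 0.28 within WT, where it rests on 1 low-Igfbp1 library, and -0.27 within Gcg KO.

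The WT and Gcg KO libraries share no sample, so the low-Igfbp1 libraries could be set beside the others within each genotype. WT 6 lay below every other WT library, and at least 2-fold below their mean log2 value, in 158 genes (1.39%). Gcg KO 10 and Gcg KO 12 both lay below every other Gcg KO library in 119 genes (1.05%) whose mean difference was at least 2-fold. The 82 genes on both lists were 51.9% of the first and 68.9% of the second. In the other direction there were 65 genes (0.573%) and 45 genes (0.397%), with 15 on both, which were 23.1% and 33.3% of them. Across all described genes the WT difference and the Gcg KO difference had a Pearson correlation of 0.59 and a Spearman correlation of 0.40. These values describe the libraries, since genes are not independent replicates and both sides were picked on the same gene.

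**Figure D5:**
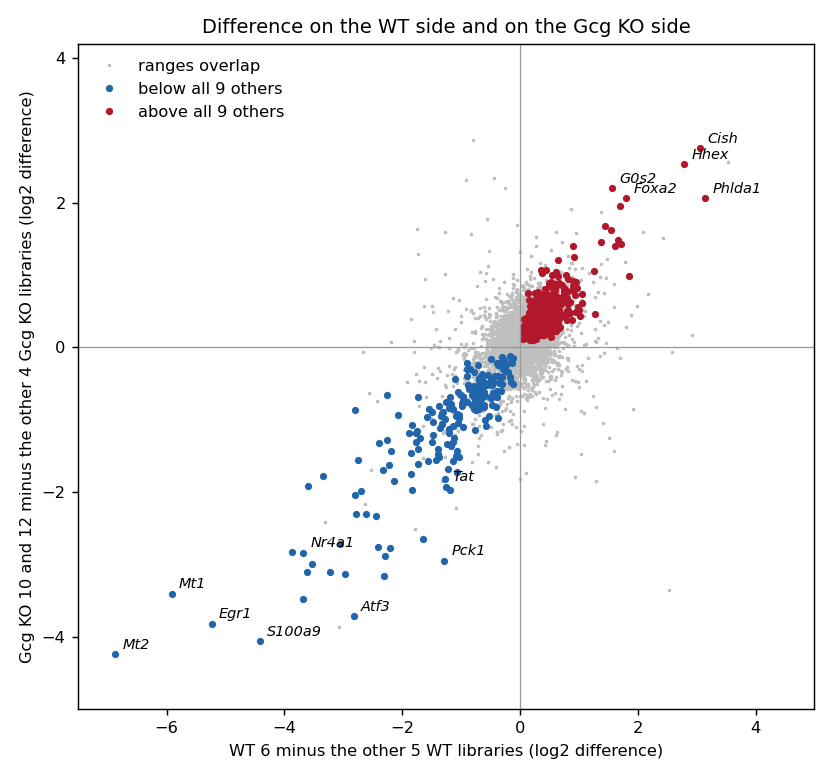
Difference of WT 6 from the other 5 WT libraries (horizontal axis) against the difference of Gcg KO 10 and 12 from the other 4 Gcg KO libraries (vertical axis), both on the log2(RPKM + 0.5) scale, 1 point per gene, with blue and red for genes whose 3 values lie below or above all 9 others. Mt1 and Mt2 lie farther from 0 on the WT axis (-5.92 and -6.88) than on the Gcg KO axis (-3.41 and -4.24).

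The size of the difference was not the same within both genotypes for every gene. Mt2 differed by -6.88 within WT and by -4.24 within Gcg KO, the other WT libraries holding 98.1 to 579 RPKM and the other Gcg KO libraries 4.37 to 85.8. Dusp1, a phosphatase of MAP kinases named after its values were seen, differed by -2.80 within WT and -0.86 within Gcg KO. Pck1 went the other way, at -1.29 within WT and -2.95 within Gcg KO. Egr1 differed by -5.24 and -3.82, Hhex by 2.79 and 2.54, and S100a9 by -4.42 and -4.06. With 1 library on the WT side, whether the sides differ was not tested.

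The genotypes were compared by limma with Benjamini-Hochberg adjustment at 0.05, which is the comparison the labels define. With all 12 libraries, 221 of 11347 genes were higher in Gcg KO than in WT (1.95%) and 218 were lower (1.92%). Of the 88 genes that were at least 2-fold lower in the low-Igfbp1 libraries 0 passed this test, as did 0 of the 16 higher ones, and limma with array weights also passed 0 of each. At an unadjusted p under 0.05, 9 of the 88 and 1 of the 16 passed limma, and the share of all genes at this p is not given here. Without the 3 libraries, 5 WT and 4 Gcg KO libraries gave 128 higher (1.13%) and 171 lower genes (1.52%) of 11284. Of the 88, 4 then passed, and of the 16 another 4 did. These genes were picked for a spread within each genotype, which widens the error of the test. That 0 passed with all 12 libraries, and more without the 3, follows in part from this choice.

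Tat fell in Gcg KO without the 3 libraries, by 0.74 on the log2 scale (SE 0.0888, limma adjusted p = 0.0015), with 1062 to 1337 RPKM in 5 WT and 642 to 762 in 4 Gcg KO libraries that did not overlap. With all 12 libraries its difference was -1.17 (adjusted p = 0.16). Rasgef1b, a guanine nucleotide exchange factor, fell by 1.45 (adjusted p = 0.0035), and Slc25a51, the mitochondrial NAD carrier, fell by 0.88 (adjusted p = 0.024). Lpin2, a phosphatidate phosphatase, rose by 0.44 (adjusted p = 0.041). Rasgef1b, Slc25a51 and Lpin2 were named after their values were seen.

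Among the genes that were high in the low-Igfbp1 libraries, Foxq1 rose in Gcg KO without the 3 libraries by 0.99 (SE 0.198, limma adjusted p = 0.026), Phlda1 by 1.11 (adjusted p = 0.025) and Foxa1 by 0.59 (adjusted p = 0.045). G0s2 fell by 0.67 (adjusted p = 0.045). The Foxa1 values were 1.97 to 3.53 RPKM in the 5 WT and 4.14 to 4.44 in the 4 Gcg KO libraries, which did not overlap. These 4 genes had adjusted p-values of 0.91 (G0s2), 0.34 (Foxa1 and Phlda1) and 0.12 (Foxq1) with all 12 libraries. Leaving out WT 6 alone was enough for Foxq1 (1.49, limma adjusted p = 0.028) and Phlda1 (1.8, adjusted p = 0.048) to pass. Gcg KO 10 and Gcg KO 12, where both genes were high, stayed in that run, so these passes follow in part from the choice of libraries.

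The metallothionein genes did not pass the genotype test. Mt1 differed by -2.83 with all libraries (limma adjusted p = 0.26) and by -2.69 without the 3 (adjusted p = 0.10). Mt2 differed by -3.32 (adjusted p = 0.26) and by -3.05 (adjusted p = 0.086), and Nr4a1 by -1.92 (adjusted p = 0.25) and by -1.59 (adjusted p = 0.056). When WT 6 alone was left out, Mt1 fell by 3.82 (limma adjusted p = 0.039) and Mt2 by 4.47 (adjusted p = 0.040). This was the only alternative run in which either gene passed. Gcg KO 10 and Gcg KO 12, where both genes were low, stayed in, so the pass follows in part from the choice of libraries.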

How the data were processed

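Poly(A) RNA of fed mouse liver was sequenced as 12 strand-specific libraries, per the labels' protocols. The authors deposited 1 table of RPKM values per gene and library. CASAVA 1.8.2, FastQC and the build GRCm38 are named per the submitters' processing notes, and the sources used here name no aligner, counting tool or annotation. RPKM values are relative within a library, so a gene that takes many reads lowers the others, and they keep no read counts. Depth was therefore estimated from the RPKM that 1 read gives to genes with 1 annotated transcript, and it limits the precision of genes near 0.

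Values were taken as log2(RPKM + 0.5), which understates the change of low genes, for genes with a mean of at least 0.5 RPKM. Each low-Igfbp1 difference is the mean of the 3 libraries minus that of the other 9 with genotype as a covariate, and it was described without a test. Gcg KO was tested against WT with limma 3.58.1 (trend) in R 4.3.3, with Benjamini-Hochberg adjustment over all genes, two-sided at 0.05, after a check on simulated data. Named genes were a panel of 33, the 10 largest non-overlapping differences in each direction with a median of at least 1 RPKM in a group, and up to 4 non-overlapping members of each list with the largest differences, and other names were chosen after their values were seen. Upstream sequences came from RefSeq windows, and 24375 of 24475 gene IDs matched RefSeq. Members and lists were chosen with earlier results of these data known. Alternatives were another pseudocount, filter, scaling or covariate, array weights, other folds and leaving out each library.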

Additional observations from a re-analysis of the deposited data

Results flagged for a closer look

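In 20 of 166 sets of 6 libraries (1 gene within 1 genotype), the highest or lowest library stood far from the nearest of the others by Dixon's criterion. For independent, normally distributed values chance exceeds it in about 1 in 20 sets. These sets are RPKM values from the same libraries and are not independent, so 20 of 166 cannot be read against that rate. WT 6, the low-Igfbp1 WT library, was the extreme library 13 times, for genes chosen in part because they differ there. It was high in Cish (13.2 RPKM), Foxa1 (9.91), Foxa2 (17.3), Foxq1 (9.16), G0s2 (35.3), Got2 (226), Hhex (71.8), Id3 (51.3), Osgin1 (132) and Phlda1 (64.5). It was low in Herpud1 (119.6 RPKM), Klf15 (48.9) and Tat (493). Within Gcg KO neither of the low-Igfbp1 libraries stood alone, since there were 2 of them.

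The other sets had no low-Igfbp1 library at the extreme. WT 1 was high in the acute phase and inflammatory genes Lcn2 (30.2 RPKM), Saa2 (259) and Tnfaip3 (4.57). WT 4 was high in Socs2 (15.9 RPKM) and WT 5 in Fos (14.7). Gcg KO 7 was high in Ppargc1a (2.27 RPKM) and Gcg KO 8 in Srebf1 (74.8).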

How the results depend on the processing

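The counts of genes lower or higher in the low-Igfbp1 libraries depended on scaling. The 192 lower genes became 309 with median centring and 304 with quantile normalization, and the 647 higher genes became 269 and 261. The 16 genes higher by at least 2-fold became 31 with a pseudocount of 0.1. Leaving out each library in turn gave 197 to 300 lower and 685 to 1430 higher genes, and 85 to 102 lower and 17 to 32 higher genes by at least 2-fold. The libraries that moved these most were WT 6 (290 lower, 1430 higher, 32 by at least 2-fold), Gcg KO 10 (1006 higher, 25 by at least 2-fold) and Gcg KO 12 (300 lower, 25 by at least 2-fold), as fewer libraries have to separate. Within both genotypes, 155 lower and 74 higher genes were shared at a fold of at least 1.5, and 34 and 5 at a fold of at least 3.

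For Gcg KO against WT by limma, 128 genes were higher without the 3 low-Igfbp1 libraries, and leaving out each library gave 136 to 261 higher and 141 to 210 lower genes. The counts moved most without WT 3 (136 higher, 141 lower) and Gcg KO 9 (142 higher), and the cause was not tested. The genotype difference of Igfbp1 (-0.28) reversed to 0.12 with array weights, 0.61 with the low-Igfbp1 state as a covariate, 0.36 without Gcg KO 10, 0.47 without Gcg KO 12, 0.13 without WT 4 and 0.54 without the 3 libraries, and ranged from -1.20 (without WT 6) to 0.47 when single libraries were left out. As Igfbp1 itself set the covariate and chose the 3 libraries, the values with the covariate or without any of those libraries follow from that choice and say nothing of the genotype. That of Egr1 (-0.43) reversed to 0.30 with the covariate, 0.16 without Gcg KO 10 and 0.000144 without Gcg KO 12, with a lowest value of -1.30 without WT 6, and that of G0s2 (-0.19) to 0.015 without Gcg KO 11 and 0.067 without WT 6, with a lowest value of -0.51 without Gcg KO 12. Egr1 and G0s2 also differ in the 3 libraries. Their values with the covariate or without any of those libraries follow in part from the choice of these libraries. No paired analysis was possible because the groups share no replicate numbers. Genes near 0 RPKM, such as Fosb, Retnlg and Ppp1r3g, rest on few reads, and the size of their difference moved with the pseudocount.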
